A study of Sus scrofa with 12 samples.

Results

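The genes described here are 9 that act on the extracellular matrix of the ovary: the metalloproteinases MMP1, MMP2, MMP9 and MMP14, their tissue inhibitors TIMP1, TIMP2 and TIMP3, and the plasminogen activators PLAT and PLAU. They were taken by name, as every probe set whose only gene symbol in the array annotation is 1 of these 9, which gave 12 of the 24123 probe sets on the array. Gene expression was measured on porcine Affymetrix GeneChips, 1 per animal, in ovaries from 12 F2 sows of an Iberian x Meishan cross, slaughtered at day 30 of pregnancy. Of these, 6 sows are labelled as high prolificacy, with the higher estimated breeding value (EBV), and 6 as low prolificacy, with the lower. Both groups share breed cross, tissue and day of pregnancy, and a sample stands for both ovaries of a sow, right and left averaged, with no further word in the labels on how. Values are log2 expression after GCRMA, the background correction and normalization named in the submitters' processing notes.

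Matrix metalloproteinases are zinc enzymes that are made as inactive proenzymes and cut collagens, laminins and other matrix proteins once activated. TIMPs bind the active site and block it, and MMP14, which sits on the cell surface, activates proMMP2 with TIMP2 as a bridge. PLAT and PLAU are serine proteases that turn plasminogen into plasmin, which degrades fibrin and can activate proMMPs. In the ovary these enzymes are known for the opening of the follicle wall at ovulation and for the remodelling of the corpus luteum, whose progesterone keeps a pig pregnant.

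A log2 level of 4 was used to call a probe set measured, and 55.5% to 56.4% of an array's probe sets lay above it, while array medians ran between 4.81 and 4.97. The mean rank correlation of an array with the others was lowest for high 2 and high 3, at 0.982 and 0.981, against 0.985 to 0.989 for the rest. Albumin, a liver protein, stood at 8.67 in high 5, 12.6 in low 1, 8.80 in low 3 and 12.4 in low 4, and between 2.04 and 3.33 in the other sows. The 3' minus 5' difference of the actin control, a sign of RNA integrity, ran from 1.95 to 3.23 in the high group and from 1.97 to 2.35 in the low group. That measure, also where it enters a model, rests on control names that appeared displaced in the value table and were moved back by inference. Luteal transcripts were bright in both groups, with the cholesterol carrier STAR between 14.04 and 14.80 over the 12 sows. All samples are bulk tissue, in which fewer cells of a type and less RNA per cell cannot be told apart.

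TIMP1 and TIMP2 were bright in every sow, and their group means differed by less than the spread between sows. TIMP1, a secreted inhibitor of most MMPs, ran from 12.14 in high 3 to 14.04 in high 2 in the high group, with a median of 13.40. In low prolificacy sows it ran from 12.53 in low 3 to 14.09 in low 2, with a median of 13.03. The groups overlapped over nearly their whole range, and the lowest and highest sow of all 12 were 1.95 apart, a 3.86-fold span. TIMP1 averaged 13.23 ± 0.72 in the high group and 13.15 ± 0.58 in the low group (SD, n = 6 each), a log2 difference of 0.078 with a 95% interval from -0.66 to 0.82 (limma adjusted p = 0.990). The sign turned once the actin 3' measure was in the model, giving -0.58, and once the 4 albumin-rich sows were left out, giving -0.31.

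TIMP2, which inhibits MMPs and also takes part in the activation of proMMP2, was read by 2 probe sets. The brighter ran from 11.96 to 13.22 with a median of 12.59 in the high group and from 12.33 to 12.95 with a median of 12.55 in the low group. The high sows held both the lowest value, in high 3, and the highest, in high 6. Its difference was -0.0056 with a 95% interval from -0.46 to 0.44 (limma adjusted p = 0.999). The second ran from 11.47 to 12.02 with a median of 11.80 in the high group and from 11.46 to 11.71 with a median of 11.59 in the low group. In that probe set 4 of 6 high sows lay above the low group's mean, and the difference was 0.17 (limma adjusted p = 0.919, exact permutation p = 0.117, two-sided). It was 0.032 with the actin 3' measure in the model. The probe sets went together at r = 0.61 over the 12 sows (rho = 0.55, permutation p = 0.0377 and 0.0717), with r at 0.93 in the high group and -0.15 in the low group (n = 6 each).

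TIMP3, the inhibitor that binds to the matrix and also blocks ADAM proteases, had the widest difference among the members measured, and it did not pass the adjusted threshold. Its brightest probe set stood close to the level of 4, at 4.18 in high 2, 4.52 in high 6, 4.55 in high 1 and high 5, 4.84 in high 4 and 5.01 in high 3. Among low prolificacy sows it stood at 4.29 in low 1, 4.89 in low 5, 5.28 in low 4 and low 6, 5.33 in low 3 and 5.88 in low 2. All 6 high sows lay below the low group's mean and 4 of 6 low sows lay above the highest high sow, but low 1 was the second lowest of the 12. The means were 4.61 ± 0.29 in the high group and 5.16 ± 0.53 in the low group, a difference of -0.55 with a standard error of 0.23 and a 95% interval from -1.05 to -0.053. The limma p was 0.0327 and 0.839 after adjustment over all probe sets tested, and the exact permutation p was 0.0390. What GCRMA does to differences at such low levels was not tested.

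The other TIMP3 probe sets were not measured in enough sows to be tested. The second ran from 3.36 to 4.09 with a median of 3.76 in the high group and from 3.72 to 5.11 with a median of 4.04 in the low group, with 1 high and 3 low sows above 4. Over the 12 sows it followed the brightest probe set at r = 0.72 (rho = 0.60, permutation p = 0.0066 and 0.0435), and low 2 was the highest sow in both. Within groups that r was 0.49 in the high group and 0.63 in the low group (n = 6 each). The third lay at the floor, between 2.20 and 2.28 in all sows. The TIMP3 level went with the 3' difference of actin at r = -0.58 (rho = -0.69, permutation p = 0.0493, adjusted p = 0.132), and r was -0.56 without the 2 sows farthest from the median of that measure. With that measure in the model the TIMP3 difference was -0.34 (limma adjusted p = 0.573). Leaving out 1 sow gave differences from -0.73 without low 1 to -0.41 without low 2. The unadjusted p of TIMP3 was 0.05 or more in 8 of these 12 cases (without high 1, 2, 5 or 6, or without low 2, 3, 4 or 6), and it was 0.0552 without both high 2 and high 3 and 0.254 with the actin 3' measure in the model.

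**Figure D1:**
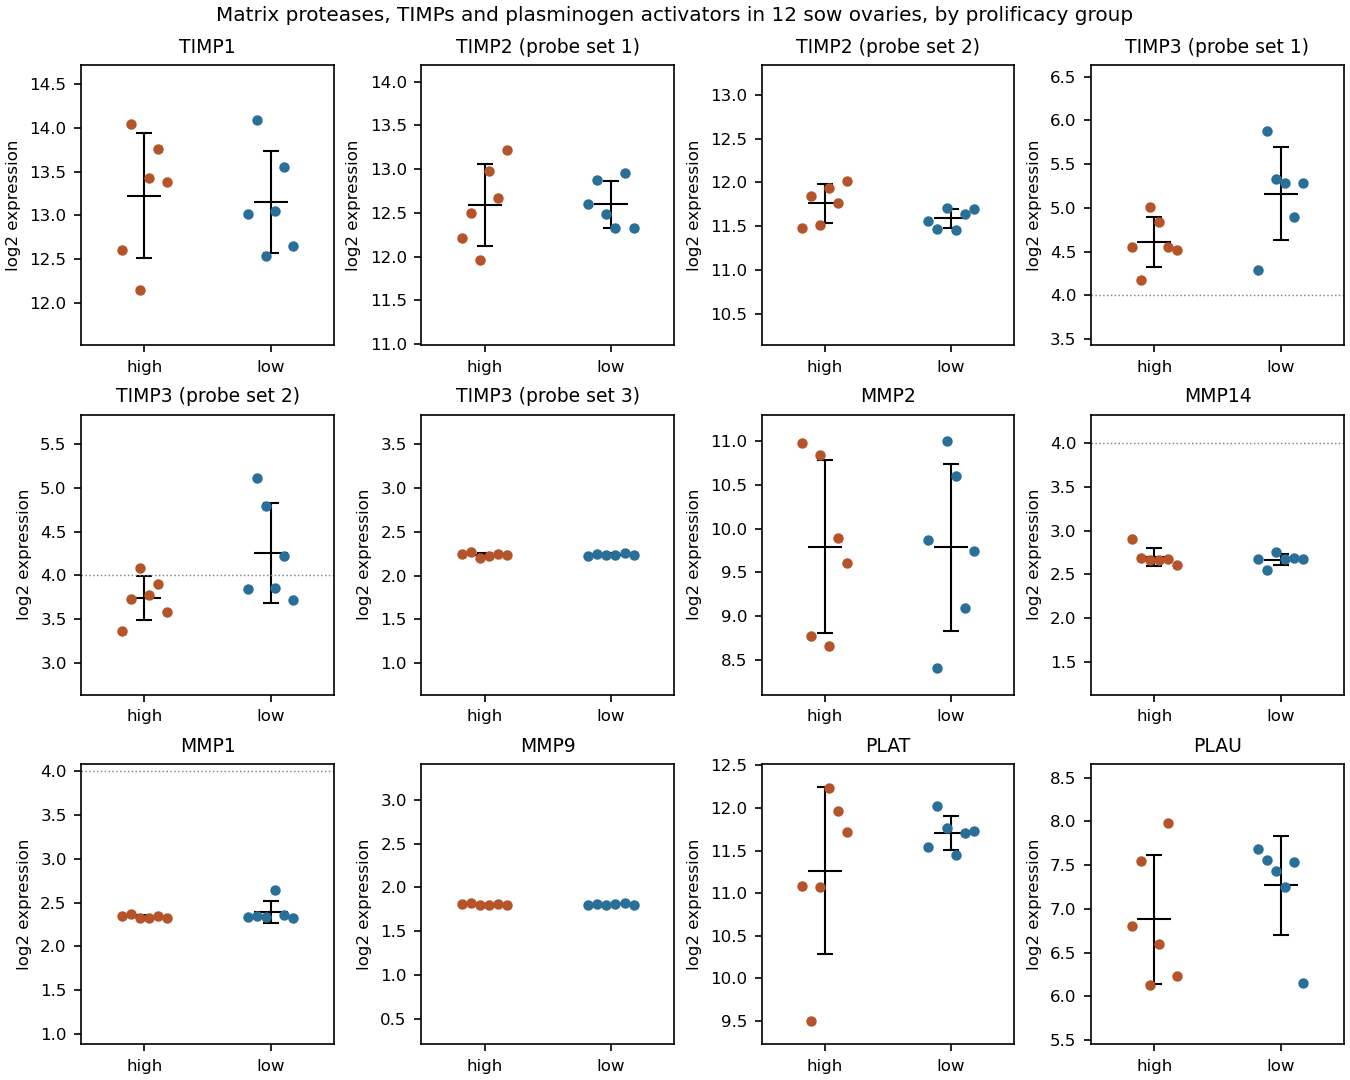
Log2 expression of the 12 probe sets, with a point for each sow in order of its animal number, bars for mean and SD of the 6 sows of a group, and a dotted line at 4 where it falls in the panel. Axes differ in position and span between panels. MMP14, MMP1, MMP9 and the third TIMP3 probe set lie at the floor in all sows, while MMP2 spans 8.41 to 10.998 and PLAT 9.50 to 12.24.

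Of the 4 metalloproteinases only MMP2 was measured above 4, and it varied widely between sows of both groups, far more than the group means differed. MMP2, the gelatinase that cuts denatured collagen and the collagen of basement membranes, ran from 8.66 in high 4 to 10.98 in high 1 in the high group, with a median of 9.76. In low prolificacy sows it ran from 8.41 in low 2 to 10.998 in low 3, with a median of 9.81. The 12 sows spanned 2.59, a 6.03-fold range, and the spread within groups, 0.97, was larger than that of 97.4% of the probe sets tested. The means were 9.80 ± 0.99 in the high group and 9.79 ± 0.95 in the low group (SD, n = 6 each), a difference of 0.0078 (limma adjusted p = 0.999). Its 95% interval ran from -1.08 to 1.10. MMP2 went with the actin 3' measure at r = -0.58 (rho = -0.55, permutation p = 0.0474 and 0.0671, adjusted p = 0.132 and 0.172, and r = -0.28 without the 2 farthest sows), and with that measure in the model its difference was 1.01 (limma adjusted p = 0.302). Without the 4 albumin-rich sows it was 0.69.

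MMP14, MMP1 and MMP9 lay at the floor of the scale in all 12 sows, as did 29.4% of the array's probe sets, which stayed under 3 throughout. MMP14, the membrane-bound activator of proMMP2, stood between 2.60 and 2.90 in the high group and between 2.55 and 2.75 in the low group. MMP1, an interstitial collagenase, stood between 2.32 and 2.37 in the high group and between 2.32 and 2.64 in the low group. MMP9, the gelatinase carried by neutrophils, stood between 1.79 and 1.82 in the high group and between 1.80 and 1.82 in the low group. Of 5 neutrophil markers on the array, none was above 4 in at least 6 sows. S100A8, ELANE and LTF stayed under 3 throughout, while the highest values of S100A9 and S100A12 were 6.45 and 4.47. Each of the 3 genes has 1 probe set here, and whether the transcript is rare or the probe set reads it poorly was not tested.

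The plasminogen activators were lower on average in high prolificacy sows, by less than the spread between sows allows to be called. PLAT, the tissue-type activator, ran from 9.50 in high 2 to 12.24 in high 4 in the high group, with a median of 11.40. In low prolificacy sows it kept between 11.45 in low 4 and 12.03 in low 2, with a median of 11.72. The SD was 0.98 in the high group and 0.20 in the low group, and 3 high sows, namely high 1, high 2 and high 3, lay under every low sow. The difference was -0.44 with a 95% interval from -1.24 to 0.37 (limma adjusted p = 0.929, exact permutation p = 0.372). It was -0.085 without high 2 and 0.050 without high 2 and high 3, whose arrays resembled the rest least. The PLAT difference was -0.16 with the actin 3' measure in the model and likewise -0.16 with array weights, and -0.70 without the 4 albumin-rich sows.

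PLAU, the urokinase-type activator, ran from 6.13 in high 3 to 7.98 in high 5 in the high group, with a median of 6.70. In low prolificacy sows it ran from 6.15 in low 6 to 7.69 in low 1, with a median of 7.49, and 5 of the 6 lay between 7.25 and 7.69. The groups overlapped, with the highest of the 12 sows in the high group and low 6 next to the lowest. PLAU averaged 6.88 ± 0.74 in the high group and 7.27 ± 0.57 in the low group, a difference of -0.39 with a 95% interval from -1.14 to 0.36 (limma adjusted p = 0.931, exact permutation p = 0.294). It was -0.61 without low 6 and likewise without high 5, -0.24 without high 3 and -0.26 without high 6. With albumin in the model the difference was -0.12, and with the actin 3' measure in it -0.72.

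With limma and Benjamini-Hochberg adjustment, 0 of the 7 member probe sets tested passed an adjusted p of 0.05, beside 0 of 13390 over the whole array (0% called). At an unadjusted p under 0.05 there was 1 of the 7, TIMP3, whose p did not hold with most single sows left out, beside 755 of the 13390, or 5.64%. With array weights it was 2 of the 7, beside 874 of the 13390. With the actin 3' measure in the model it was 1 of the 7, not TIMP3, beside 2178 of the 13390. Groups did not overlap in 0 of the 7, beside 0.471% of all probe sets tested. The mean was higher in high prolificacy sows in 3 and lower in 4, beside 47.6% and 52.4% of all probe sets. The median difference of the 7 was -0.0056, beside -0.010 over all probe sets tested. TIMP1, TIMP2, TIMP3, MMP2, PLAT and PLAU, 6 of the 9 genes, are represented in these counts, and each of the 7 probe sets was above 4 in all 12 sows.

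**Figure D2:**
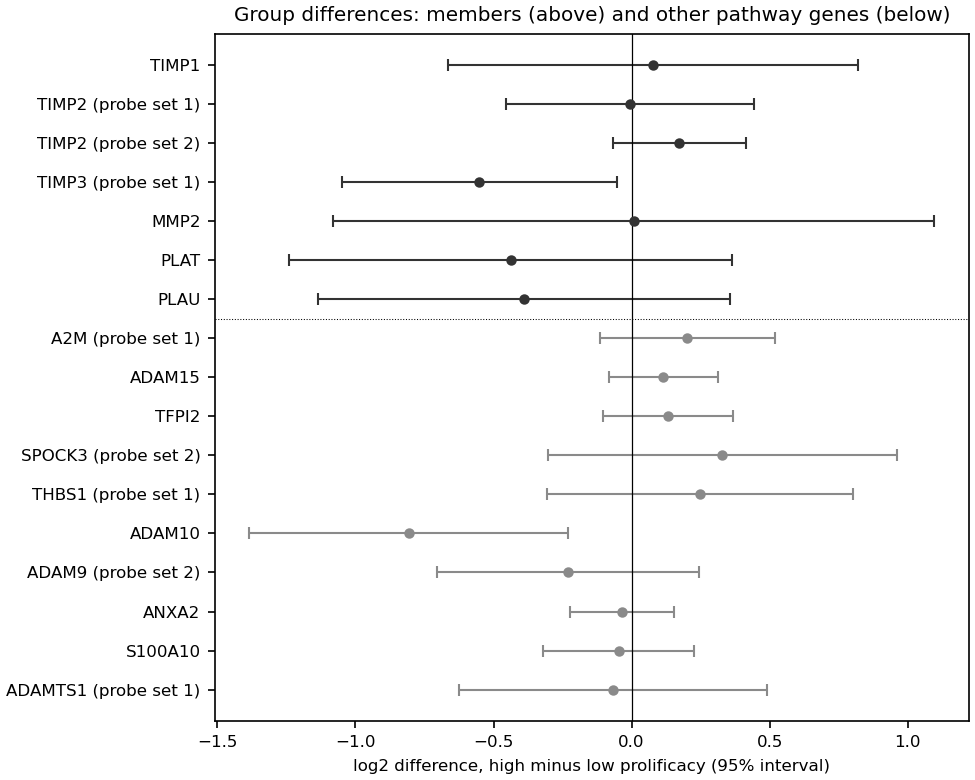
Log2 difference of high minus low prolificacy with its 95% interval from limma, for the 7 member probe sets tested and, under the dotted line, 10 other genes of matrix proteolysis. Only the intervals of TIMP3 and ADAM10 leave out 0, and neither gene passed after adjustment over all probe sets.

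Other genes of matrix proteolysis were taken from a list of 56, of which 26 had a probe set and 16, with 24 probe sets, were tested. None passed, beside 0 of 13390 over the whole array. At an unadjusted limma p under 0.05 there was 1 of the 24, ADAM10, beside 5.64% of all probe sets tested. The mean was higher in high prolificacy sows in 15 and lower in 9 of the 24, beside 47.6% and 52.4% of all. Genes with several probe sets count more than once here. The median difference was 0.052, beside the -0.010 of all probe sets. ADAM10, a membrane sheddase that cleaves receptors and adhesion proteins, had the smallest p of the list. It ran from 4.44 in high 2 to 6.17 in high 5 in the high group, with a median of 5.90. In low prolificacy sows it ran from 6.13 in low 6 to 6.90 in low 2, with a median of 6.32. High 5 was the only high sow not under every low sow. The difference was -0.81 with a 95% interval from -1.38 to -0.23 (limma p = 0.00982, adjusted p = 0.752, exact permutation p = 0.00433). The lowest ADAM10 values were in high 2 and high 4, the sows with the largest 3' differences of actin, at 3.23 and 2.98. With that measure in the model the ADAM10 difference was -0.35 (limma adjusted p = 0.540).

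ADAM9, another sheddase, differed by -0.23 in the probe set of smallest p and by 0.045 and -0.067 in the other probe sets tested. Annexin A2 (ANXA2) and S100A10, which together hold plasminogen and PLAT at the cell surface, differed by -0.035 and -0.047. ADAMTS1, which cuts the proteoglycan versican around the ovulating follicle, differed by -0.067 and -0.044 in its probe sets. Of the inhibitors, A2M, which traps proteases of all classes, differed by 0.20 in its brightest probe set and by -0.42 in the other that was tested, and TFPI2, an inhibitor of plasmin, by 0.13. SPOCK3 differed by 0.33 and 0.11 in its probe sets, and THBS1, a matrix glycoprotein that binds proteases, by 0.25, 0.25 and -0.023 in its 3 tested probe sets. ADAM15 differed by 0.12. Single sows moved several of these values in the probe set of smallest p. SPOCK3 was 0.14 without high 3, 0.20 without high 2, 0.22 without low 3 and 0.52 without high 5, and THBS1 was 0.13 without high 1, 0.14 without low 2 and 0.44 without high 4. A2M was 0.088 without low 1 and 0.13 without high 2, ADAM15 was 0.057 without high 5, and TFPI2 was 0.21 without high 6. ADAM9 was -0.11 without high 3, -0.15 without high 6 and -0.37 without high 2. With the actin 3' measure in the model A2M gave 0.016, THBS1 0.66 and ADAM9 -0.73, and without the 4 albumin-rich sows THBS1 gave 0.52 and ADAM15 0.013. On the deposited values of 12 sows, without covariate or array weights, the genes named here had a limma adjusted p of at least 0.924. ADAM10 is the exception, and its value is given above. With the actin 3' measure in the model the limma adjusted p was 0.183 for ADAM9 and 0.267 for THBS1. That model put 2178 of the 13390 probe sets tested under an unadjusted limma p of 0.05, against 755 without the measure. Of the 24 probe sets of this list it put 3 there, against 1, so lower p-values with this measure were not particular to ADAM9 and THBS1. Without high 4 the limma adjusted p was 0.72 for THBS1. TIMP4, MMP3, MMP7, MMP13 and MMP20 stayed under 4 in all sows, with highest values of 2.18, 3.25, 2.29, 3.05 and 2.93.

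Plasminogen itself, PLG, a protein of the liver and the substrate of PLAT and PLAU, was above 4 in only 2 sows. It stood between 1.88 and 1.95 in all 6 high sows, against 6.46 in low 1, 7.24 in low 4 and 1.92 to 1.93 in the other low sows. Low 1 and low 4 are the sows with the highest albumin. Vitronectin (VTN), a plasma protein that stabilises the activator inhibitor PAI-1, stood between 3.13 and 3.38 in high prolificacy sows, against 9.05 in low 1, 8.18 in low 4, 5.24 in low 3 and 3.33 to 3.36 in the others. Both were left out of the test for dimness. Of 9 liver markers on the array, 1 was above 4 in at least 6 sows, and the part of liver RNA in the PLG and VTN values was not tested.

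The widest relation among the members was an inverse one: sows with more MMP2 had less TIMP1, though TIMP1 was bright in every sow. Over the 12 sows r was -0.83 and rho -0.80 (permutation p = 0.00159 and 0.00272), with adjusted p of 0.0238 and 0.0408 over the 15 pairs of the 6 measured genes, each by its brightest probe set. It was the only 1 of the 15 to pass, and it was singled out after the values were seen. Within groups r was -0.82 in the high group and -0.86 in the low group (n = 6 each). Without high 3 and low 2, the sows farthest from the median TIMP1, r was -0.76 (permutation p = 0.0133, adjusted p = 0.128). The pair no longer passed without high 3 alone (r = -0.81, adjusted p = 0.0550) or without low 2 alone (r = -0.79, adjusted p = 0.0759). TIMP1 went with the actin 3' measure at r = 0.60 and rho = 0.62 (permutation p = 0.0380 and 0.0345, adjusted p = 0.130 and 0.151), at 0.86 in the high group and 0.42 in the low group and at 0.52 without the 2 farthest sows, the opposite sign to MMP2. The part of RNA integrity in the relation was not tested.

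MMP2 also ran against TIMP2, its inhibitor and partner in activation, at r = -0.68 and rho = -0.69 (permutation p = 0.0157 for each). The adjusted p was 0.0470 for each over the 3 computable pairs chosen for their known roles, and 0.0856 and 0.0924 over all 15. The relation is that of the brighter TIMP2 probe set, and with the second one r was -0.40 (adjusted p = 0.604). It kept its pass over the 3 pairs only without high 2, high 6, low 3 or low 6 when 1 sow was left out, and lost it in 8 of the 12 cases. Within groups r was -0.68 in the high group and -0.75 in the low group, and r was -0.75 without the 2 sows farthest from the median TIMP2. TIMP1 and TIMP2 went together at r = 0.67 and rho = 0.68 (permutation p = 0.0171 and 0.0185, adjusted p = 0.0856 and 0.0924), and r was 0.51 without the 2 sows farthest from the median TIMP1. PLAT and PLAU gave r = -0.057 and rho = 0.17 (permutation p = 0.891 and 0.604, adjusted p = 0.891 and 0.604 over the 3 pairs), with r at 0.072 without the 2 sows farthest from the median PLAT. TIMP1 and TIMP3 gave r = -0.11 and rho = -0.20 (permutation p = 0.736 and 0.526, adjusted p = 0.891 and 0.604 over the 3 pairs). Without high 3 and low 2 that r was -0.57. Within groups it was -0.73 in the high group and 0.33 in the low group (n = 6 each).

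**Figure D3:**
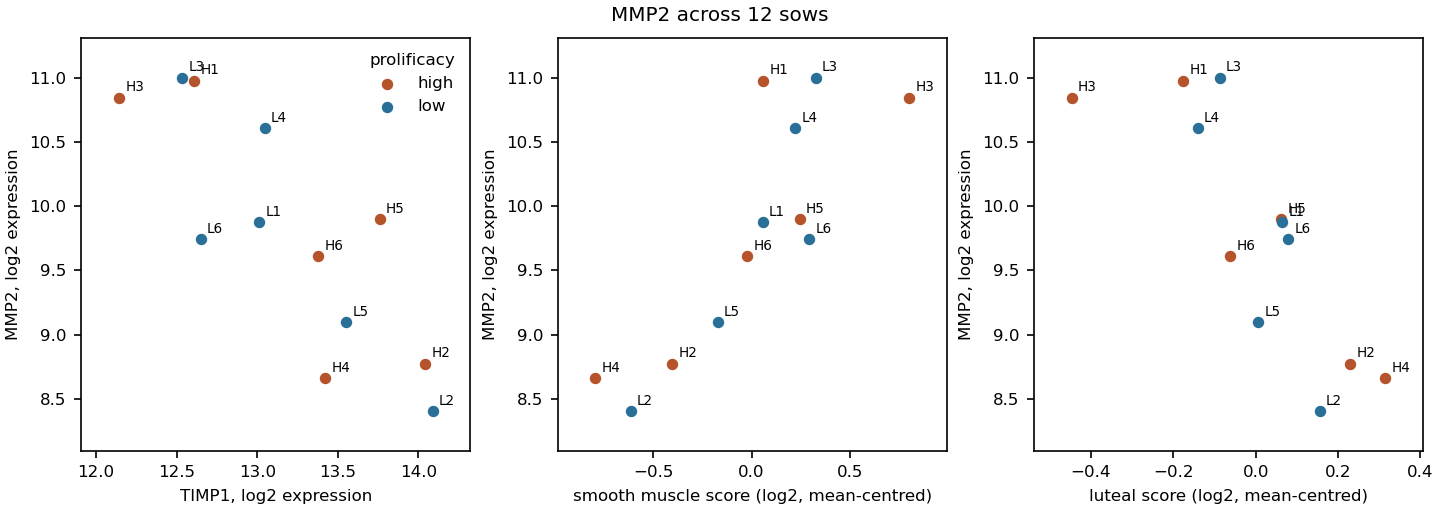
MMP2 expression of each of the 12 sows (H, high; L, low prolificacy, with the animal number) against TIMP1 expression, the smooth muscle score and the luteal score, all in log2 units. MMP2 is low where TIMP1 or the luteal score is high (r = -0.83 and -0.82) and high where the smooth muscle score is high (r = 0.84), with sows of both groups along each trend.

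Across sows MMP2 followed markers of stroma and smooth muscle and ran against luteal markers. A marker score averages, over the measured genes of a list, how far a sow's log2 value lay from that gene's 12-sow mean. Lists with at least 5 measured genes, together with the 3' difference and albumin, gave 48 relations to the 6 genes, of which 5 had an adjusted p under 0.05. With the smooth muscle score MMP2 had r = 0.84 and rho = 0.85 (permutation p = 4.4e-04 and 8.6e-04, adjusted p = 0.0131 and 0.0406), and all 5 measured markers, among them ACTA2 and TAGLN of the contractile apparatus, were positive, from 0.68 to 0.84. With the stroma and fibroblast score MMP2 had r = 0.84 and rho = 0.76 (permutation p = 8.2e-04 and 0.00677, adjusted p = 0.0131 and 0.0812). Here COL1A2, a collagen chain, DCN, a matrix proteoglycan, and FBLN1, a matrix glycoprotein, gave 0.82, 0.82 and 0.83, while LUM gave -0.16 and DPT 0.031. With the luteal score MMP2 had r = -0.82 and rho = -0.83 (permutation p = 7.2e-04 and 0.00169, adjusted p = 0.0131 and 0.0406), negative in 8 of 8 markers. These ran from -0.81 for FDX1 to -0.089 for LHCGR.

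These MMP2 relations had the same sign in both groups. With smooth muscle r was 0.84 in the high group and 0.89 in low, with stroma 0.80 in high and 0.92 in low, and with luteal markers -0.91 in high and -0.83 in the low group (n = 6 each). Without the 2 sows farthest from the median score r was 0.82, 0.76 and -0.84, with adjusted p of 0.0775, 0.134 and 0.0775. They passed with any 1 sow left out. With the granulosa score MMP2 had r = 0.62 (rho = 0.46, permutation p = 0.0345 and 0.135, adjusted p = 0.130 and 0.259), at 0.99 in the high group and 0.013 in the low group, and at 0.44 without the 2 farthest sows. Of the 6 measured granulosa markers 5 were positive with MMP2, while INHBA went the other way at -0.74. The group means of the smooth muscle score were -0.019 in the high group and 0.019 in the low group, those of the stroma score 0.099 and -0.099, and those of the luteal score -0.013 and 0.013. The part of tissue make-up in these relations was not tested.

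TIMP1 showed the opposite pattern. It went with the luteal score at r = 0.74 and rho = 0.69 (permutation p = 0.0052 and 0.0175, adjusted p = 0.0498 and 0.105), with 7 of 8 markers positive and LHCGR at -0.12. It ran against the smooth muscle score at r = -0.76 and rho = -0.76 (permutation p = 0.0046 and 0.0064, adjusted p = 0.0498 and 0.0812), with 5 of 5 markers negative. Without the 2 sows farthest from the median score r was 0.70 and -0.77, with adjusted p of 0.231 and 0.129. Each of the pair lost its pass in 9 of the 12 cases with 1 sow left out, the luteal relation keeping it only without high 4, high 6 or low 6 and the smooth muscle relation only without high 4, high 5 or high 6. Without high 2 and high 3 r was 0.52 and -0.61.

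PLAU had its highest r with macrophage markers, at 0.61 and rho = 0.57 (permutation p = 0.0378 and 0.0580, adjusted p = 0.130 and 0.172), with 6 of 6 markers positive and r = 0.40 without the 2 farthest sows. Its r was nearly as high with albumin, at 0.55, and with endothelial markers, at 0.54 (permutation p = 0.0690 and 0.0468, adjusted p = 0.174 and 0.132). PLAT had its highest r with endothelial markers, at 0.44 and rho = 0.52 (permutation p = 0.122 and 0.0896, adjusted p = 0.292 and 0.205), and r was 0.57 without the 2 farthest sows. Within groups that r was 0.50 in the high group and 0.091 in the low group (n = 6 each). Of the endothelial markers 6 of 7 were positive with PLAT, while PECAM1 gave -0.16. No relation of PLAU or PLAT passed. With TIMP3 no marker list passed, at r between -0.21 and 0.17.

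**Figure D4:**
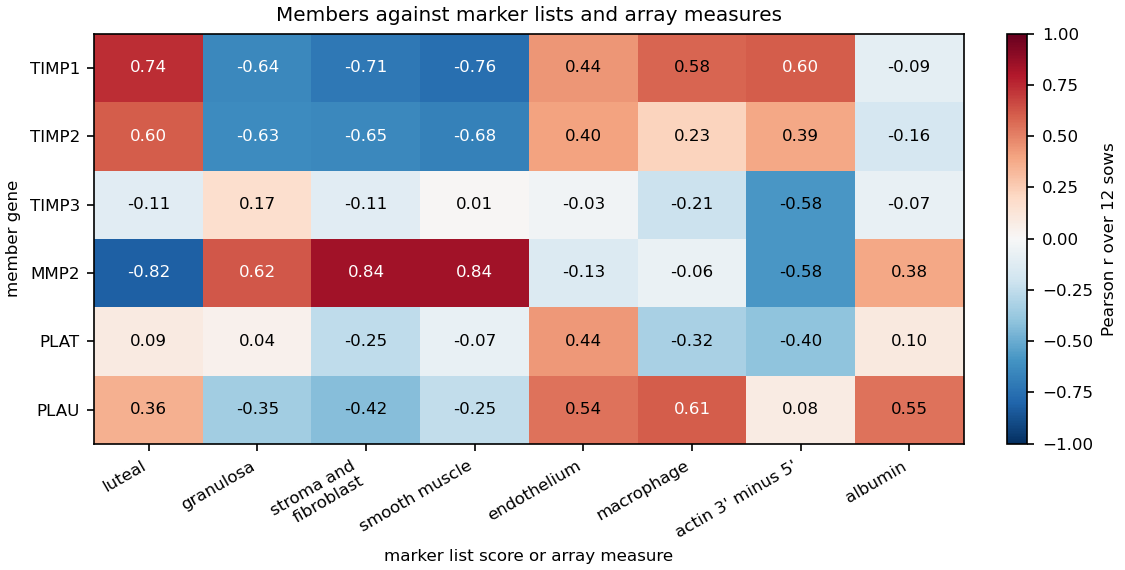
Pearson r over the 12 sows between each of the 6 measured genes (rows, brightest probe set) and 6 marker list scores, the 3' minus 5' difference of actin and albumin (columns). MMP2 and TIMP1 have opposite signs with the luteal, granulosa, stroma and smooth muscle scores, and TIMP2 has the signs of TIMP1.

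The transcripts most like MMP2 and PLAT, the 2 members that spanned more than 2 log2 units, were sought among all tested probe sets with 1 gene symbol, by Pearson r over the 12 sows. Closest to MMP2 were APOD, a lipid-binding apolipoprotein, at 0.96, the lysyl-tRNA synthetase KARS at 0.96, the heterochromatin protein CBX3 at 0.95, the ribosomal protein RPL17 at 0.95 and PDGFRL at 0.94. APOD and PDGFRL spanned 9.001 to 12.04 and 7.71 to 10.28 over the sows, while RPL17 kept between 14.04 and 14.59. PLAT spanned more than 2 only through high 2, at 9.50, as the other sows lay between 11.08 and 12.24. The part of high 2 in the r values of PLAT was not tested. Closest to PLAT were the small GTPase RAB4B, the neddylation enzyme UBE2M and the Golgi mannosidase MAN2A2, each at 0.94, and AUP1 and VPS52, both at 0.93. These values are the highest of all those searched and are given as a description.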

How the data were processed

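The deposited values are log2 expression values per probe set, made by the authors with GCOS and GCRMA per the submitters' processing notes. Those notes give no versions, and the log2 scale was inferred from a range of 0.97 to 15.34. Gene symbols came from the array annotation. Probe sets above 4 in at least 6 of 12 sows were tested, without the 124 control probe sets, which left 13390. High was compared with low prolificacy by limma 3.58.1 in R 4.3.3, without covariates, with Benjamini-Hochberg adjustment over all tested probe sets, beside two-sided exact permutation over 924 assignments for single probe sets. Correlations used 100000 permutations in Python 3.11.15. Sources used here do not say whether the 12 numbered animals are related, and p-values treat them as independent. The limma step was tested on simulated data.

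Members, lists and tests were chosen with earlier results of these data known. Genes named are all members, the 5 of the list of other matrix proteolysis genes with the smallest p in each direction, and the 5 transcripts most like each member spanning over 2. Others named, such as PLG, VTN and LAMB2, were chosen after their values were seen. Names of the 62 porcine control probe sets were moved by 21 places. That displacement was chosen for the smallest mean gap between like-named controls of both kinds. The gap was 0.49, against 5.17 as named, and is no separate check of the move. The actin 3' measure uses the moved names. The animal numbers did not pair the sows.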

Additional observations from a re-analysis of the deposited data

Results flagged for a closer look

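In groups of 6 sows, 3 of 44 groups examined had a sow whose gap to the nearest other, divided by the group's range, was above 0.625, where chance gives about 1 in 20. PLAU in low 6 stood at 6.15, the nearest other low sow at 7.25, a ratio of 0.716. MMP14 in high 1 stood at 2.90, the nearest other high sow at 2.69, a ratio of 0.707, and MMP1 in low 4 stood at 2.64, the nearest other low sow at 2.36, a ratio of 0.896. The values of MMP14 and MMP1 lie at the floor of the scale.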

How the results depend on the processing

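No member and no other matrix proteolysis probe set passed under any alternative, and over the whole array the count was 0 except without low 1, where it was 1, a range of 0 to 1 with a sow left out. The animal number as a replicate block also gave 0. Animals of the same number deviated together at more than 0.1 in 2 of 6 cases, with 1 correlating best with its own number. The correlations of the 6 cases ran from -0.46 for number 4 to 0.17 for number 5. Signs turned for TIMP1 when albumin-rich sows were left out (-0.31) and when the actin 3' measure entered the model (-0.58). The brighter TIMP2 probe set gave 0.013 with median centring, 0.24 with array weights and 0.17 without high 2 and high 3. MMP2 gave -0.26 with array weights, and without high 2 and high 3 PLAT gave 0.050, SPOCK3 -0.067 and S100A10 0.071. With 1 sow left out, TIMP1 ran from -0.085 to 0.29, the brighter TIMP2 probe set from -0.13 to 0.12, MMP2 from -0.27 to 0.25, ANXA2 from -0.065 to 0.0041, S100A10 from -0.11 to 0.023 and ADAMTS1 from -0.23 to 0.074. The r of MMP2 with TIMP1 was -0.76 without the farthest sows and -0.78 without high 2 and high 3 (adjusted p = 0.0994), and ran from -0.88 to -0.79 with 1 sow left out. That of PLAT with PLAU was 0.072 without the farthest sows, which are high 2 and high 3, and ran from -0.17 to 0.29. That of TIMP1 with TIMP3 was 0.18 with the second TIMP3 probe set and 0.15 without high 2 and high 3, and ran from -0.57 to 0.10. MMP2 with TIMP2, which passed over the 3 pairs chosen for their roles, no longer did with the second TIMP2 probe set (-0.40), with quantile normalization (-0.64), without the farthest sows (-0.75), without high 2 and high 3 (-0.73) or when adjusted over all 15 pairs (r still -0.68), and ran from -0.77 to -0.62 with 1 sow left out. The fixed pairs with MMP14, MMP9 or MMP1 were not run, as these lie at the floor. For the 3 pairs chosen for their roles, leaving out single sows or high 2 and high 3, normalizing again and adjusting over 15 pairs were added after the data were seen, as were all alternatives for the other correlations. The causes of these changes were not tested.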

Other observations

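LAMB2, the laminin beta 2 chain of basement membranes, was singled out after the values were seen because it ran against TIMP1. It stood at 9.36, 8.04, 9.49, 8.45, 8.49 and 8.72 in high 1 to high 6 and at 8.85, 8.08, 9.35, 9.02, 8.52 and 9.26 in low 1 to low 6. Its r over the 12 sows was -0.98 with TIMP1 and 0.90 with MMP2. SERPINE2, an inhibitor of PLAU and plasmin that is also on the granulosa list, spanned 10.92 in high 4 to 13.24 in high 1. Its group means were 12.20 in high and 12.11 in low prolificacy sows, and its r was 0.68 with MMP2 and -0.61 with TIMP1.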
